A study of Mus musculus with 9 samples.

Results

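Hepatic stellate cells and portal fibroblasts are the resident cells of the liver that turn into collagen-producing myofibroblasts, and 10 genes that mark them were followed here in cultured cholangiocarcinoma cells. They were found by symbol among the 55276 genes of the deposited count table, and each of the 10 had 1 row. Lrat, Reln, Des, Hand2, Lhx2, Ngfr, Cygb and Gfap are used as markers of stellate cells (8 genes), and Thy1 and Fap as markers of portal or activated fibroblasts (2 genes). The rule names the genes and uses no measured value, although earlier results of these data were known when they were chosen. The cells are PPTR cells, a mouse intrahepatic cholangiocarcinoma (iCCA, a bile duct cancer) line from a genetic liver cancer model with the alleles Prom1CreERT2 and Rosa-ZsGreen among others. The labels give these alleles for all 3 groups, in which a tamoxifen-dependent Cre recombinase is driven by Prom1 and ZsGreen is a fluorescent reporter. The control cells, called Vcam1 ctrl here and WT in the labels, were compared with Vcam1 KO1 and Vcam1 KO2, each a clone grown from a single cell after CRISPR/Cas9 editing of Vcam1, the gene of a cell adhesion molecule. All were grown in medium with 10% fetal bovine serum, with 3 RNA-seq libraries per group and 9 in all. Since each knockout is 1 clone, the editing of Vcam1 and the choice of clone cannot be told apart, and the descent of the clones from the control culture was not tested.

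In the healthy liver, stellate cells lie between hepatocytes and the sinusoidal endothelium, where they store vitamin A as retinyl esters in lipid droplets. On injury they lose the droplets and become contractile, matrix-secreting myofibroblasts, while fibroblasts of the portal tract form a second source of such cells around bile ducts. Lrat and Reln are most often used to tell stellate cells from portal fibroblasts, and Thy1 to mark the latter. The question put to the data was which of these markers the clones carried, and at what level.

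Lrat and Hand2 were all but unread in every group, whereas Lhx2 and Gfap were higher in both clones than in Vcam1 ctrl. The 250 bases upstream of the start of these 4 genes are shown for that contrast, from RefSeq on GRCm38.p6 and 5′ to 3′ on the gene's own strand, with CG dinucleotides in capitals. They lie at chr3:82903975-82904224 (minus strand) for Lrat, at chr8:57320733-57320982 (plus strand) for Hand2, at chr2:38339031-38339280 (plus strand) for the first of 2 Lhx2 promoters and at chr11:102897201-102897450 (minus strand) for Gfap, the last within the bounds that GENCODE gives the gene.
Lrat: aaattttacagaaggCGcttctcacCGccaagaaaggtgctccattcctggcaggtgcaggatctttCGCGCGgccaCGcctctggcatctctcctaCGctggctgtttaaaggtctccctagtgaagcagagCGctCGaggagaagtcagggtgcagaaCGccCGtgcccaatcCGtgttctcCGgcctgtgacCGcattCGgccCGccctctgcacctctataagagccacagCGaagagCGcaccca
Hand2: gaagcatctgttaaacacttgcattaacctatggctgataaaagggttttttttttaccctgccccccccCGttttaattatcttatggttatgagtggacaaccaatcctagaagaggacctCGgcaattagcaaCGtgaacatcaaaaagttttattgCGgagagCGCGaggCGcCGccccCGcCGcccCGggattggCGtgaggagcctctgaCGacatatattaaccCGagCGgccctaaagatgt
Lhx2: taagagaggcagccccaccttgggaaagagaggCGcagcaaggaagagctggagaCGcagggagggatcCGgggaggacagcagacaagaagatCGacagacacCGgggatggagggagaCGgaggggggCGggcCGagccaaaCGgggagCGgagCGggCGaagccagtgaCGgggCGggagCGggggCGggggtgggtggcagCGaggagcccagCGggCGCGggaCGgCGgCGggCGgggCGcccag
Gfap: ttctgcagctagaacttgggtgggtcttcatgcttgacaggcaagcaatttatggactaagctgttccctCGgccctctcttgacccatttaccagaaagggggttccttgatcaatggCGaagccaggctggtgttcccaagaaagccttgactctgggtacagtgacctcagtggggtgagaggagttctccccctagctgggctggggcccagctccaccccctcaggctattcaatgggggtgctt
Lrat held 18 CG dinucleotides, Hand2 15, Lhx2 25 and Gfap 2, beside a median of 6 over 32851 mouse promoters of the same length, of which 92.1% held at least 1. The promoters of both unread genes were thus above that median, as was that of Lhx2, and that of Gfap was below it. Among the other members Reln held 37, Ngfr 16, Des 10 and the second Lhx2 promoter 24, and the sequences of Fap, Thy1 and Cygb were not used here. The GC box GGGCGG, searched on both strands, occurred 4 times in the printed Lhx2 promoter, 2 times in that of Hand2, 1 time in that of Lrat and 0 times in that of Gfap, and 32.7% of all promoters held it. The E-box CANNTG occurred 2 times in Hand2 and 1 time in Lrat and was not found in the windows of Lhx2 and Gfap, beside 66.2% of all promoters with it. The nuclear receptor half-site AGGTCA was found in this set only in Gfap, 1 time, beside 14% of all promoters, and the TATA box TATAAA (12.4% of all promoters) in none of the members' windows. A match of letters describes the sequence and is not a site in use.

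Library totals ran from 53415907 to 125223073 counts. Levels are in CPM, a gene's count scaled to the size of its library after TMM scaling. Genes with 3 counts or fewer in a library were held to be at the edge of detection there, which came to between 0.0239 and 0.0553 CPM. Vcam1 was read first, as the edited gene. It stood at 248, 220 and 329 CPM in the control libraries, at 98.8, 92.4 and 128 CPM in Vcam1 KO1 and at 119, 99.4 and 82.9 in Vcam1 KO2. The 6 clone libraries lay below the 3 control libraries, with a log2 fold change of -1.36 (SE 0.17, adjusted p = 0.00021). Here and throughout, adjusted p values are from the quasi-likelihood test of edgeR after Benjamini-Hochberg correction over all tested genes. Vcam1 mRNA was thus lower and not absent in the libraries labelled as knockouts, at 0.389 of the control level, and per kilobase of exon it still exceeded 76.3% of tested genes in Vcam1 KO1 and 74.6% in Vcam1 KO2. By qRT-PCR and flow cytometry the authors reported Vcam1 expression as lost in both clones. The counts here measure RNA over the whole gene and not protein. Replicate 3 of Vcam1 KO1 stood apart from the other replicates of its clone, with a chi-square per degree of freedom over genes of 273 and 313 against 40.8 between the other pair, and member results that change without it are given without it too. Replicate 3 of Vcam1 KO2 differed from its partners by 187 and 127, beside 40.1 between those. The control replicates were spread too, at 132 between 1 and 2, 95.1 between 1 and 3 and 189 between 2 and 3. Epithelial genes that define the line as a cholangiocarcinoma were nearly absent from the clones. The summed level of 8 biliary epithelial markers was 11498 to 12238 CPM in Vcam1 ctrl and 176 to 452 CPM in the clones, where the bile duct keratin Krt8 stood at means of 0.130 and 0.405 CPM beside 5375 in the control.

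Lrat encodes lecithin retinol acyltransferase, which makes the retinyl esters that stellate cells store. It lies on chromosome 3 (82892579 to 82903973, minus strand, GRCm38) with 2 exons. It had 0 counts in all 3 Vcam1 ctrl libraries, 1, 0 and 0 counts in the Vcam1 KO1 libraries and 0 in all 3 Vcam1 KO2 libraries. No group rose above the limit of 3 counts in any library, so Lrat was not detectable at this depth and was left out of the main test. Of the markers that the field holds most specific for stellate cells, it was thus the one with the fewest reads, 1 among all 9 libraries.

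Reln encodes reelin, a large secreted glycoprotein of the extracellular matrix that quiescent and activated stellate cells make. It spans chromosome 5 (21884454 to 22344702, minus strand), with 65 exons in its longest transcript. Its counts were 3, 3 and 3 in Vcam1 ctrl, 3, 5 and 10 in Vcam1 KO1 and 3, 5 and 2 in Vcam1 KO2. In CPM the 9 libraries lay between 0.0239 and 0.16, at or near the detection limit, and the groups overlapped. Reln did not pass the filter on low counts. In a fit with no filter, over 34314 genes, its adjusted p for both clones against Vcam1 ctrl was 0.42 by edgeR's quasi-likelihood test. The gene shares 246 exonic bases with the antisense gene Gm10475. The counting was strand-aware, and how well it kept the genes apart was not tested.

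Hand2 and Lhx2 are transcription factors, of the basic helix-loop-helix and the LIM homeodomain families. Hand2 is a marker of the septum transversum mesenchyme from which stellate cells arise, and Lhx2 is known to hold stellate cells in the quiescent state. Hand2 (chromosome 8, 57320983 to 57324633, plus strand, 2 exons) had 2, 0 and 0 counts in Vcam1 KO1 and 0 in each of the other 6 libraries. Its divergent non-coding partner Hand2os1 had between 0 and 5 counts. Hand2, like Lrat, was not detectable at this depth.

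Lhx2 (chromosome 2, 38339281 to 38369733, plus strand, 5 exons in the longest transcript) gave the clearest difference among the members. It stood at 4.13, 2.99 and 3.58 CPM in Vcam1 ctrl, at 17.9, 17.7 and 14 CPM in Vcam1 KO1 and at 10.2, 11.6 and 14.2 CPM in Vcam1 KO2. All 6 clone libraries were above all 3 control libraries, and the clones overlapped each other. With both clones together the level was 4-fold that of the control, a log2 fold change of 2.0 (SE 0.24, adjusted p = 0.00017, edgeR's quasi-likelihood test). Against the same 3 control libraries Lhx2 rose by a log2 fold change of 2.21 (SE 0.20, adjusted p = 1.2e-05) in Vcam1 KO1 and of 1.75 (SE 0.19, adjusted p = 6.2e-05) in Vcam1 KO2 (edgeR). Vcam1 KO1 exceeded Vcam1 KO2 by 0.46 on the log2 scale (95% interval 0.04 to 0.88), which did not pass the threshold (adjusted p = 0.08, edgeR). Without replicate 3 of Vcam1 KO1 this difference was 0.57, with an adjusted p of 0.0469.

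Des and Gfap encode intermediate filament proteins. Desmin is the muscle filament that rodent stellate cells share with muscle and mural cells, and GFAP is the filament of astrocytes that is also found in quiescent stellate cells. Des (chromosome 1, 75360329 to 75368579, plus strand, 9 exons) stood at 7.57, 5.15 and 4.18 CPM in Vcam1 ctrl, at 12, 10.9 and 5.22 in Vcam1 KO1 and at 10.1, 12.3 and 8.71 in Vcam1 KO2. The 3 Vcam1 KO2 libraries lay above every control library, while replicate 3 of Vcam1 KO1 lay within the control range. The log2 fold change was 0.81 (SE 0.31, adjusted p = 0.059) for both clones, 0.73 (SE 0.33, adjusted p = 0.081) for Vcam1 KO1 and 0.87 (SE 0.33, adjusted p = 0.0503) for Vcam1 KO2, so that Des missed the threshold in each comparison with edgeR's quasi-likelihood test. It passed in each once replicate 3 of Vcam1 KO1 was left out, with log2 fold changes of 0.92 (adjusted p = 0.012), 1.02 (adjusted p = 0.0079) and 0.88 (adjusted p = 0.011). Leaving out replicate 1 of Vcam1 ctrl had the same effect, with adjusted p values of 0.0494, 0.0446 and 0.032. For Vcam1 KO2 it also passed with DESeq2 (adjusted p = 0.029), with no filter (0.044) and in a fit on the 6 libraries compared (0.021), and for both clones with DESeq2 (0.031) and as the mean of the clones' contrasts (0.039). The clones differed from each other by -0.14 (95% interval -0.88 to 0.60). Skeletal muscle markers did not come with Des: Myod1, Myog and Myf5 were at 0 counts in all 9 libraries, and the summed level of 8 such genes was 0.212 to 1.05 CPM.

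Gfap (chromosome 11, 102887336 to 102900912, minus strand, 9 exons in the longest transcript) was barely read in the control, at 0.104, 0.0738 and 0.0379 CPM, which are 13, 4 and 3 counts. It stood at 1.11, 0.761 and 1.64 CPM in Vcam1 KO1 and at 0.291, 0.17 and 0.251 CPM in Vcam1 KO2. The 3 groups did not overlap, with Vcam1 KO1 highest, Vcam1 KO2 next and the control lowest. Gfap entered the test only through the clone libraries, so a gene of this kind had to be higher there to be tested at all. Its log2 fold change was 3.24 (SE 0.88, adjusted p = 0.015) for both clones, 3.95 (SE 0.48, adjusted p = 8.3e-05) for Vcam1 KO1 and 1.65 (SE 0.49, adjusted p = 0.018) for Vcam1 KO2 (edgeR). Vcam1 KO1 exceeded Vcam1 KO2 by 2.30 (SE 0.43, adjusted p = 0.0029). The call for both clones was lost without replicate 2 or replicate 3 of Vcam1 ctrl (adjusted p = 0.0542 and 0.063), and that for Vcam1 KO2 without replicate 3 of Vcam1 ctrl or replicate 1 of Vcam1 KO2 (adjusted p = 0.056 and 0.058, edgeR). Even in Vcam1 KO1 the mean was 1.17 CPM (SD 0.444, n = 3). Of 8 glial markers fixed as a list, 7 were tested, with 3 higher (1 of them, Aqp4, tested only through the clones) and 1 lower in the clones, and their summed level was 42.8 to 51.6 CPM in Vcam1 ctrl, 98.9 to 124 in Vcam1 KO1 and 127 to 193 in Vcam1 KO2. Sox10, the factor that defines Schwann cells, was at 0 counts in Vcam1 ctrl and Vcam1 KO2, with a mean of 0.02 CPM in Vcam1 KO1. The part of such cells in the Gfap level was not tested.

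**Figure D1:**
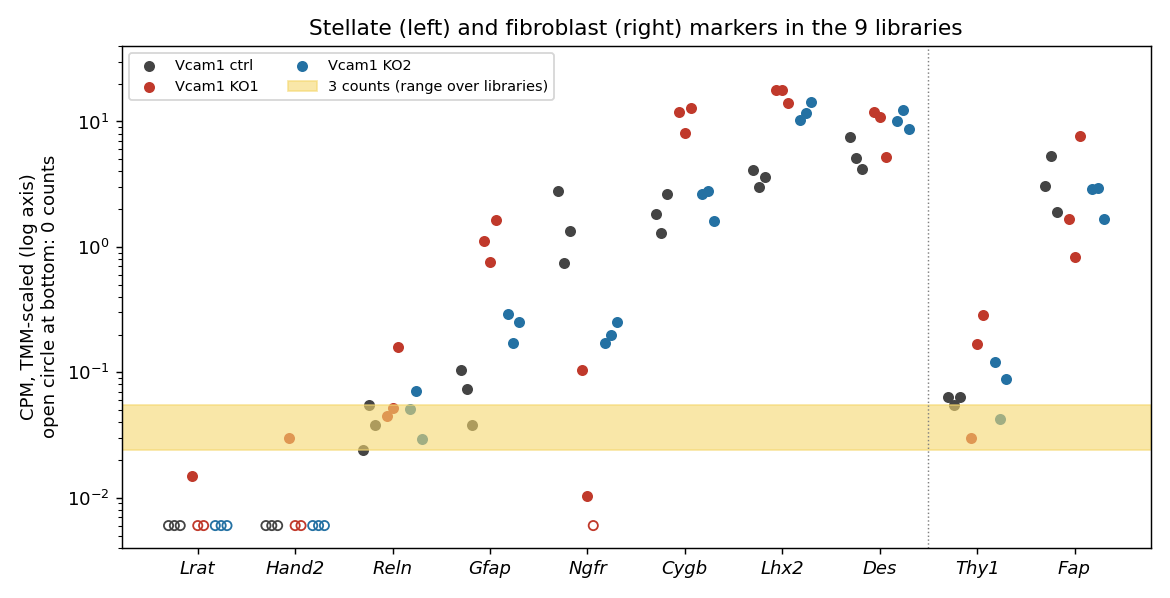
Level of each of the 10 markers in each of the 9 libraries, in TMM-scaled CPM on a log axis, with Vcam1 ctrl in dark grey, Vcam1 KO1 in red and Vcam1 KO2 in blue. Open circles at the bottom are libraries with 0 counts and the yellow band spans 3 counts over the libraries; Lrat and Hand2 lie at or below it throughout, while Lhx2 runs from 2.99 to 4.13 in the control and from 10.2 to 17.9 in the clones.

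Ngfr encodes the p75 neurotrophin receptor, a surface receptor used to sort stellate cells. It was the member that fell. On chromosome 11 (95568818 to 95587735, minus strand, 6 exons), it stood at 2.81, 0.738 and 1.34 CPM in Vcam1 ctrl, at 0.105, 0.0104 and 0 in Vcam1 KO1 and at 0.171, 0.198 and 0.251 in Vcam1 KO2. Every clone library was below every control library. In counts, the highest library of Vcam1 KO1 had 7 and of Vcam1 KO2 17, beside 40 to 353 in the control. The log2 fold change was -3.73 (SE 0.89, adjusted p = 0.0083) for both clones, -5.43 (SE 0.88, adjusted p = 0.00054) for Vcam1 KO1 and -2.98 (SE 0.72, adjusted p = 0.0069) for Vcam1 KO2 (edgeR's quasi-likelihood test). Vcam1 KO1 was the lower of the clones, by -2.45 (95% interval -4.52 to -0.39, adjusted p = 0.06, edgeR), with no overlap between their libraries. That difference passed the threshold with DESeq2 (-2.50, adjusted p = 0.013), with limma-voom (-3.16, adjusted p = 0.041), with no filter (-2.48, adjusted p = 0.035) and without replicate 1 of Vcam1 KO1 (-4.77, adjusted p = 0.011) or replicate 2 of Vcam1 ctrl (-2.50, adjusted p = 0.0485).

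Cygb encodes cytoglobin, an oxygen-binding globin of stellate cells. It lies on chromosome 11 (116645595 to 116654313, minus strand, 4 exons) and stood at 1.84, 1.29 and 2.64 CPM in Vcam1 ctrl, at 12, 8.03 and 12.9 in Vcam1 KO1 and at 2.64, 2.77 and 1.6 in Vcam1 KO2. The 3 Vcam1 KO1 libraries were above all others, and Vcam1 KO2 overlapped the control. Cygb was thus higher in 1 clone and was not detectably so in the other. The log2 fold change was 2.50 (SE 0.33, adjusted p = 0.00016, edgeR) for Vcam1 KO1 and 0.27 (95% interval -0.45 to 1.0, adjusted p = 0.51, edgeR) for Vcam1 KO2. The difference between the clones was itself past the threshold, at 2.23 (SE 0.33, adjusted p = 0.00088, edgeR). With both clones pooled, in which this difference counts as spread, it was 1.79 (SE 0.73, adjusted p = 0.075, edgeR), and it passed with DESeq2 (1.74, adjusted p = 0.021), as the mean of the clones' own contrasts (1.39, adjusted p = 0.0027) and without replicate 3 of Vcam1 KO2 (1.94, adjusted p = 0.036). Cygb shares 201 exonic bases with Prcd, a gene of photoreceptor discs on the opposite strand. Prcd lay between 0.387 and 0.683 CPM in Vcam1 ctrl, between 2.8 and 3.62 in Vcam1 KO1 and between 1.09 and 1.2 in Vcam1 KO2, also highest in Vcam1 KO1. The counting was strand-aware, and whether reads of Cygb and Prcd were fully kept apart was not tested.

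Thy1 encodes a glycosylphosphatidylinositol-anchored surface protein of portal fibroblasts. On chromosome 9 (44043384 to 44048579, plus strand), it had 8, 3 and 5 counts in Vcam1 ctrl, 2, 16 and 18 in Vcam1 KO1 and 7, 3 and 6 in Vcam1 KO2. The libraries lay between 0.0299 and 0.287 CPM with overlap of all groups, and Thy1 did not pass the filter. With no filter its adjusted p was 0.37 for both clones and 0.19 for Vcam1 KO1 by edgeR's quasi-likelihood test.

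Fap encodes fibroblast activation protein, a surface serine protease of activated fibroblasts. It lies on chromosome 2 (62500943 to 62574075, minus strand, 15 exons in the longest transcript) and stood at 3.07, 5.26 and 1.91 CPM in Vcam1 ctrl, at 1.68, 0.824 and 7.64 in Vcam1 KO1 and at 2.88, 2.93 and 1.67 in Vcam1 KO2. All groups overlapped, and Vcam1 KO1 spanned more than the whole control range because its replicate 3 was the highest of the 9 libraries. No difference passed: -0.22 for both clones (95% interval -1.64 to 1.21, adjusted p = 0.81), -0.01 for Vcam1 KO1 (-1.62 to 1.59, adjusted p = 0.99) and -0.45 for Vcam1 KO2 (-2.07 to 1.17, adjusted p = 0.63, edgeR). Without replicate 3 of Vcam1 KO1 that clone was below the control by -1.45 (adjusted p = 0.034, edgeR).

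**Figure D2:**
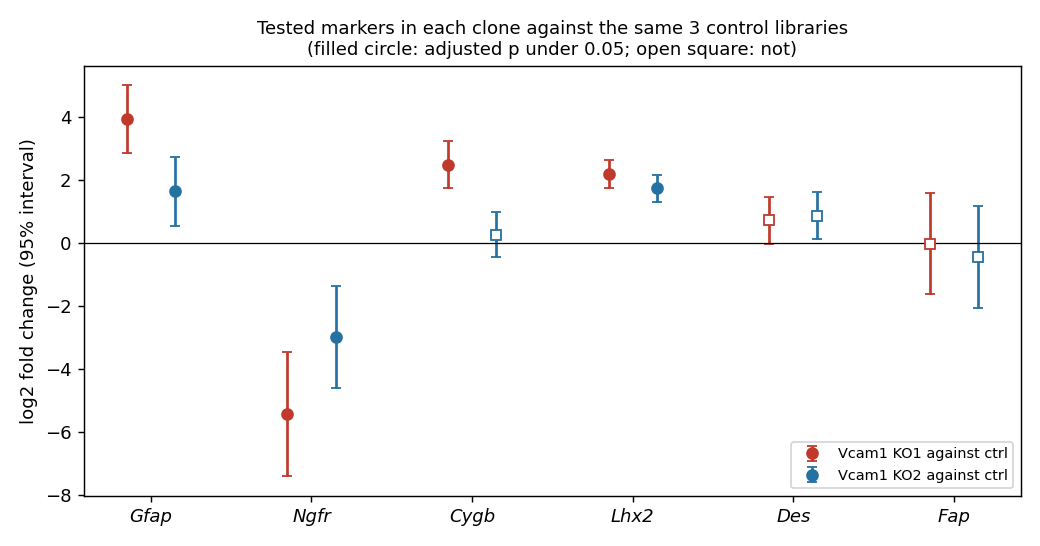
Log2 fold change of the 6 tested markers in Vcam1 KO1 (red) and in Vcam1 KO2 (blue) against the same 3 Vcam1 ctrl libraries, with 95% intervals; filled circles have an adjusted p under 0.05 and open squares do not. Gfap and Lhx2 are above 0 and Ngfr below 0 in both clones, whereas Cygb is at 2.50 in Vcam1 KO1 and 0.27 in Vcam1 KO2.

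Of the 10 markers 6 were tested. Between both clones and Vcam1 ctrl, 3 of these 6 differed with edgeR's quasi-likelihood test, where 43% of all 17672 tested genes did. The 3 were also those whose libraries did not overlap, beside 44.2% of tested genes. Lhx2 and Gfap were higher, beside 21.7% of tested genes, and Ngfr was lower, beside 21.2%. Gfap was tested only through the clones, since its control libraries alone would not have passed the filter. The same holds for 892 of the 3839 higher calls over all genes. Lhx2 and Ngfr would have passed on the libraries of their lower group alone. Des, Cygb and Fap were tested and missed the threshold, and Lrat, Reln, Hand2 and Thy1 were not tested for low counts. In Vcam1 KO1 4 of the 6 tested markers differed from the control, beside 59.9% of tested genes. Lhx2, Gfap and Cygb were higher there (29.9% of tested genes were) and Ngfr was lower (30% were), and the libraries of these 4 did not overlap the control, as for 66% of tested genes. In Vcam1 KO2 3 of the 6 differed, beside 51.4% of tested genes, with Lhx2 and Gfap higher (25.3%) and Ngfr lower (26.1%). These 3 and Des did not overlap the control there, as for 62.1% of tested genes. Between the clones 2 of the 6 differed, beside 38.7% of tested genes. Both, Gfap and Cygb, were higher in Vcam1 KO1 (20.2%) and 0 were lower (18.5%), and with Ngfr they did not overlap, as for 54.9% of tested genes. Both comparisons with the control use the same 3 control libraries. Without replicate 3 of Vcam1 KO1 the counts were 4 for both clones, 6 for Vcam1 KO1, 4 for Vcam1 KO2 and 3 between the clones. The median log2 fold change of the 6 tested markers was 1.30 for both clones, beside 0.07 for all tested genes, a description that includes Gfap and leaves out the 4 that were too low to test. A share of members called near that of all genes says nothing particular of the markers.

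To set the markers against each other, CPM was divided by the length of a gene's exons in kilobases. In Vcam1 ctrl the order was Des at 1.5 CPM per kb (SD 0.465, n = 3), Cygb at 0.826 (SD 0.291), Lhx2 at 0.811 (SD 0.129), Fap at 0.602 (SD 0.3) and Ngfr at 0.473 (SD 0.31). The ranges of 1 SD around the means overlapped for Des and Cygb, and for Cygb, Lhx2, Fap and Ngfr. Thy1 at 0.0203, Gfap at 0.017 and Reln at 0.00165 CPM per kb followed, with Lrat and Hand2 at 0. The ranges of Thy1 and Gfap overlapped too. In Vcam1 KO1 Cygb led at 4.7 CPM per kb (SD 1.11), ahead of Lhx2 at 3.76 (SD 0.502) and Des at 2.5 (SD 0.973). The ranges of 1 SD around the means overlapped for Cygb and Lhx2 and for Lhx2 and Des. Fap at 0.597 (SD 0.656), Gfap at 0.278 (SD 0.105), Thy1 at 0.0539 (SD 0.043) and Ngfr at 0.0111 (SD 0.0167) came after these genes. The range of 1 SD around Fap overlapped those of Gfap, Thy1 and Ngfr there, so Fap could not be ranked against them. Thy1 and Ngfr overlapped in the same way. In Vcam1 KO2 Des at 2.76 (SD 0.483) and Lhx2 at 2.73 (SD 0.458) could not be ranked, and Cygb at 1 (SD 0.276) and Fap at 0.44 (SD 0.126) were next, ahead of Ngfr at 0.06 (SD 0.0118) and Gfap at 0.0563 (SD 0.0147), which could not be ranked either.

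These were modest levels for the cells. The Lhx2 level of Vcam1 KO1 exceeded that of 54.1% of the tested genes that had a length, and the Cygb level there that of 58%. These 2 were the markers above the median tested gene in Vcam1 KO1, and 0 were in Vcam1 KO2, where Des exceeded 49.2% and Lhx2 49% of tested genes. Averaged over the 6 clone libraries Lhx2 alone was above the median, with exon lengths or with the longest transcript. The collagen gene Col1a1, for comparison, had a mean of 1010 CPM per kb in the clones and 15.1 in Vcam1 ctrl, and Pdgfrb, the receptor that drives growth of activated stellate cells, 95.4 and 5.37. In cultures read as a bulk, fewer cells of a type and less RNA per cell cannot be told apart.

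**Figure D3:**
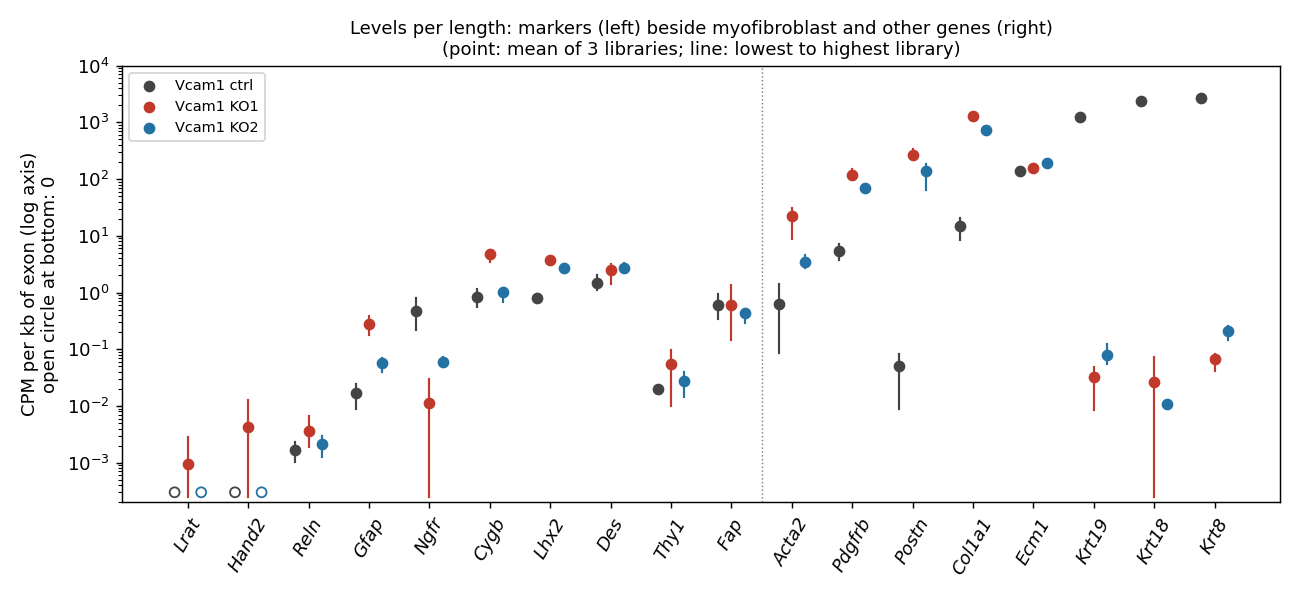
Levels in CPM per kilobase of exon on a log axis, for the 10 markers on the left and for 8 myofibroblast, stellate and keratin genes on the right; points are means of 3 libraries, vertical lines run from the lowest to the highest library and open circles stand for 0. The markers lie below 10 CPM per kb in every group, while Col1a1, Postn and Pdgfrb of the clones reach higher and the keratins Krt8, Krt18 and Krt19 are high only in Vcam1 ctrl among the groups.

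The markers were then read beside lists of genes with related roles, given as counts for both clones against Vcam1 ctrl, where 21.7% of all tested genes were higher and 21.2% lower. A gene whose control libraries alone would not have passed the filter was tested only through the clones and had to be higher, and the reverse holds for lower calls, so counts and medians of the lists are descriptions. Without replicate 3 of Vcam1 KO1 the counts of 5 lists moved by 1 gene, which are given with each. Of 19 other stellate markers 14 were tested, with 6 higher, 2 lower and 6 that did not pass, and a median log2 fold change of 1.38. Of the 6 higher, 5 passed the filter only through the clones (Colec10, Vipr1, Pth1r, Adamtsl2 and Rgs5). Without replicate 3 of Vcam1 KO1, 7 were higher. Adamtsl2, a binder of microfibrils, went from a mean of 0.0106 CPM in Vcam1 ctrl to 3.42 (SD 3.84) in Vcam1 KO1 and 11.4 (SD 4.58) in Vcam1 KO2, and Vipr1, a receptor for vasoactive intestinal peptide, from 0.0368 to 3.29 (SD 0.435) and 0.548 (SD 0.221). Colec10, a collectin of stellate cells, rose by 3.72 on the log2 scale (SE 0.63, adjusted p = 0.0012, edgeR). Nes, the filament protein nestin, fell by 9.69 (SE 0.74, adjusted p = 1.1e-05), from 352 CPM (SD 22.8) to 0.33 (SD 0.455) and 0.53 (SD 0.153). The other lower gene, Angptl6, fell by 3.49 (SE 0.75, adjusted p = 0.0047, edgeR), from 23.1 CPM (SD 4.98) to 0.841 (SD 0.0878) and 3.26 (SD 2.48). The list therefore moved in both directions, and 4 of its genes, among them the stellate ligands Gdf2 and Bmp10 that signal to the endothelium, had 3 counts or fewer in all libraries.

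Of 15 other markers of portal fibroblasts 14 were tested, with 3 higher, 5 lower and 6 that did not pass, and a median of 0.00. The higher genes were Fbln1, Mgp and Dpt. Of these Dpt passed the filter only through the clones, and 1 of the lower calls passed it only through the control. Fbln1 rose by a log2 fold change of 3.66 (SE 0.53, adjusted p = 0.00051, edgeR). It went from 4.83 CPM (SD 2.78) in Vcam1 ctrl to 37.7 (SD 8.06) in Vcam1 KO1 and 84.2 (SD 2.96) in Vcam1 KO2. The 4 with the largest change among those over 1 CPM were all lower. The log2 fold change was -10.11 (SE 0.43, adjusted p = 4.4e-07) for the elastic fibre protein Eln, -10.36 (SE 0.30, adjusted p = 6.9e-08) for the sialomucin Cd34, -7.40 (SE 0.46, adjusted p = 3.9e-06) for the basement membrane collagen Col15a1 and -6.86 (SE 0.60, adjusted p = 2.4e-05) for Entpd2, the ectonucleotidase of portal fibroblasts. In levels, Eln went from 118 CPM (SD 72.5) in Vcam1 ctrl to 0.0979 and 0.109 in the clones. All 4 were thus read in the control tumor cells, and the highest mean of any in a clone was that of Col15a1 in Vcam1 KO2, 1.77 CPM (SD 0.457).

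The genes of the activated myofibroblast, a state that either cell can enter, moved otherwise. All 15 were tested, with 11 higher, 0 lower and 4 that did not pass, and the median log2 fold change was 4.15. Tagln, Myl9 and Postn passed the filter only through the clones (3 of the 11). Postn, the matrix protein periostin, rose by a log2 fold change of 11.94 (SE 1.03, adjusted p = 2.3e-05, edgeR), from 0.445 CPM (SD 0.334) in Vcam1 ctrl to 2345 (SD 503) in Vcam1 KO1 and 1209 (SD 572) in Vcam1 KO2. Lox, which crosslinks collagen, rose by 9.89 (SE 0.58, adjusted p = 2.8e-06) and Col1a1 by 6.06 (SE 0.48, adjusted p = 1.4e-05, edgeR). Myl9, a myosin light chain of contractile cells, stood at 28.6 CPM (SD 11) in Vcam1 KO1 and 0.3 (SD 0.0881) in Vcam1 KO2, beside 3 counts or fewer in each control library, and the clones differed (adjusted p = 1.7e-05). Fap, itself a marker of this state, passed in no comparison over all libraries. Without replicate 3 of Vcam1 KO1 the list had 12 higher and 0 lower.

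Lrat was also read beside 15 other genes of vitamin A storage and handling. Of these 14 were tested, with 3 higher, 4 lower and 7 that did not pass, and a median of -0.74. Of the calls, 1 of the higher passed the filter only through the clones and 1 of the lower only through the control. Without replicate 3 of Vcam1 KO1, 5 were lower. Rbp4, the retinol carrier of plasma, fell by 9.30 (SE 1.01, adjusted p = 9e-05), and Plin2, a coat protein of lipid droplets, by 0.99 (SE 0.20, adjusted p = 0.0036, edgeR). Lipa, the lysosomal acid lipase, rose by 1.11 (SE 0.17, adjusted p = 8e-04), and Pnpla2, a triglyceride lipase, fell by 0.67 (SE 0.21, adjusted p = 0.027, edgeR).

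For the transcription factors Lhx2 and Hand2, the comparison was with 10 other factors of the stellate lineage, of which 9 were tested, with 3 higher, 1 lower and 5 that did not pass. Foxf1, a forkhead factor of liver mesenchyme, rose by 3.88 (SE 0.55, adjusted p = 4.9e-04), Mef2c, a factor of stellate cell activation, by 3.45 (SE 0.89, adjusted p = 0.012) and the retinoid X receptor Rxra by 1.12 (SE 0.21, adjusted p = 0.0024), and Gata6 fell by 1.36 (SE 0.32, adjusted p = 0.0073, edgeR). Lhx2 and Foxf1 thus both rose, while Hand2 was not detectable.

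The partners of the remaining members were fewer. Of 8 neurotrophins and their receptors that pair with the product of Ngfr, 5 were tested, with Ntrk3 and Sort1 higher by 3.01 (SE 0.49, adjusted p = 0.001) and 2.73 (SE 0.81, adjusted p = 0.022) and Bdnf, a ligand, lower by -1.29 (SE 0.33, adjusted p = 0.011, edgeR). Neither of the 2 tested reelin receptors passed for both clones, although both were lower in Vcam1 KO1 and Vldlr was also lower in Vcam1 KO2 (-1.15, adjusted p = 0.0091), and the adaptor Dab1 had 3 counts or fewer throughout. Of 3 other globins beside Cygb, Mb was tested, only through the clone libraries, and was higher, at a summed level for the 3 of no more than 0.606 CPM in any library. Of 4 proteases related to Fap, Dpp9 was higher by 0.96 (SE 0.11, adjusted p = 1.6e-04, edgeR), and Dpp4 went from 15.9 CPM (SD 4.62) in Vcam1 ctrl to 1 count at most in any clone library, while the other two did not pass. Dpp4 passed the filter only through the control.

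**Figure D4:**
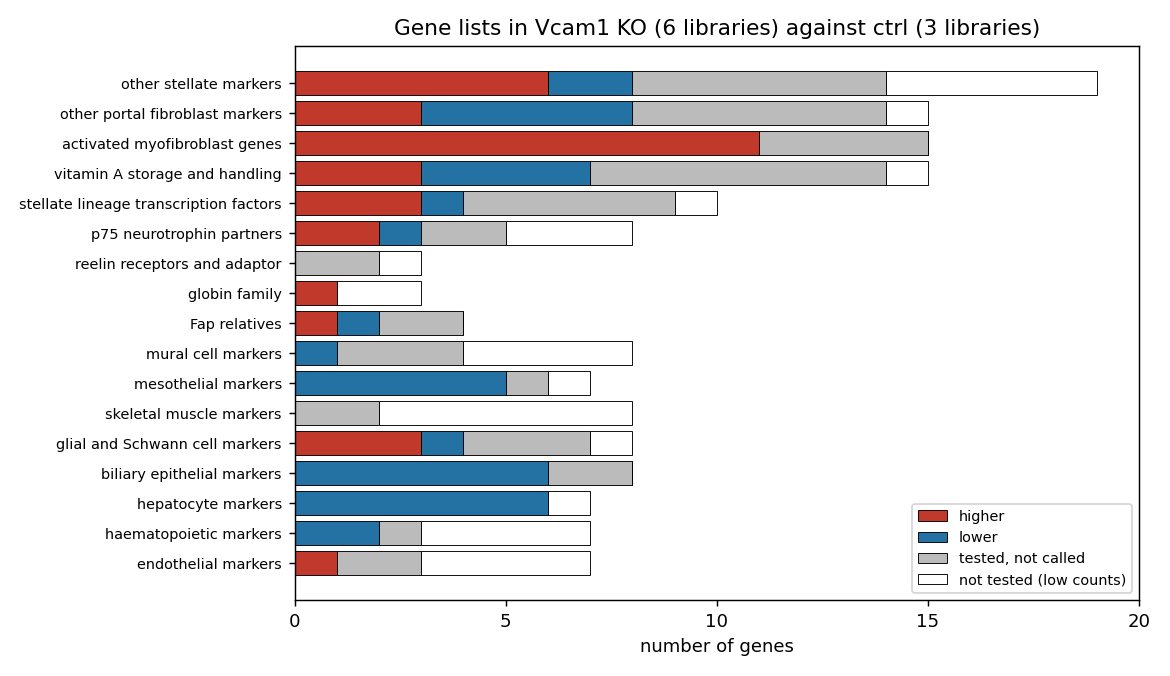
Number of genes in each of 17 lists that were higher (red), lower (blue), tested without passing (grey) or not tested for low counts (white) in the 6 Vcam1 KO libraries against the 3 Vcam1 ctrl libraries. The activated myofibroblast list has 11 of 15 higher, the other stellate markers 6 of 19 higher and 2 lower, and the biliary and hepatocyte lists have lower calls only. Of those lower calls, 3 of 6 biliary and 5 of 6 hepatocyte calls passed the filter only through the control.

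Markers of other cell types that share these genes were read for the same libraries. Of 8 mural cell markers 4 were tested, with 0 higher (1 without replicate 3 of Vcam1 KO1) and 1 lower. The lower gene, the proteoglycan Cspg4, passed the filter only through the control and differed by -7.40 (SE 0.75, adjusted p = 5.9e-05, edgeR). The summed level of the 8 markers was 29.1 to 47.7 CPM in Vcam1 ctrl, 26.2 to 31.3 in Vcam1 KO1 and 67 to 80.7 in Vcam1 KO2. Notch3, the gene with the highest mean of the list, was at 74 CPM (SD 6.92) in Vcam1 KO2, and Higd1b, a pericyte gene, had at most 1 count. Of 7 mesothelial markers 6 were tested and 5 were lower (and 1 higher without replicate 3 of Vcam1 KO1). Of these 5 lower calls, 3 passed the filter only through the control. The summed level of the 7 markers was 285 to 437 CPM in Vcam1 ctrl, 1.13 to 1.72 in Vcam1 KO1 and 17 to 18.6 in Vcam1 KO2. The defining gene Msln differed by -11.43 (SE 0.30, adjusted p = 6.2e-08, edgeR). Of 7 hepatocyte markers 6 were tested and 6 were lower, of which 5 passed the filter only through the control. Hnf4a, at 226 CPM (SD 32.7) in Vcam1 ctrl, had 0 counts in all 6 clone libraries, at least 5178-fold lower at the limit of 3 counts. The summed level of 7 haematopoietic markers was 7.51 to 20.9 CPM in the control and 5.12 to 9.46 in the clones, with Cd3e at 1 count or fewer. Of 3 tested, 0 were higher and 2 lower, 1 of which passed the filter only through the control. The summed level of 7 endothelial markers was 0.867 to 2.12 CPM in the control, 3.11 to 4.46 in Vcam1 KO1 and 1.08 to 1.92 in Vcam1 KO2, with 1 higher of 3 tested and Clec4g at 0 throughout. The higher gene was Stab2, a scavenger receptor of sinusoidal endothelium, which passed the filter only through the clones, at 0.0169 CPM in Vcam1 ctrl, 2.74 (SD 0.651) in Vcam1 KO1 and 0.424 (SD 0.121) in Vcam1 KO2. Their part in the levels of the 10 markers was not tested.

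Lhx2 and Cygb differed in the company they kept across the 9 libraries. By log2 CPM over 13088 genes with a mean of at least 1 CPM, Lhx2 was most like Wdsub1 and Tacc1 (Pearson r = 0.995 each), and 1281 genes had an r over 0.9 with it. Cygb was most like Vps8 (r = 0.994), with 592 genes over 0.9. Des had 3 genes over 0.9, led by Zfp773 (r = 0.932) and Sept2 (r = 0.912), and Fap had 0, its nearest being Cdv3 (r = 0.898) and Rbks (r = 0.857). The 9 libraries fall into 3 groups, so any gene that separates the groups in the same order has a high r, and these values are a description.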

How the data were processed

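RNA-seq was performed by the authors on 9 libraries of PPTR cells, 3 per group, from different passages, as stranded paired-end mRNA libraries. The authors pseudoaligned the reads with kallisto 0.46.1, set for strand and sequence bias, to GENCODE transcripts of mm10 (GRCm38). The deposited values are estimated counts per gene symbol without normalization, all of them whole numbers, so no rounding was needed; 0 columns were left out. How transcripts were summed to genes is not given in the sources used here. Replicate numbers only name libraries in label order, and p-values measure the spread between libraries.

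TMM scaling, filterByExpr and all tests used edgeR 4.0.16 under R 4.3.3. The filter kept 17672 of 55276 genes. Its quasi-likelihood test was applied, Benjamini-Hochberg adjusted over all tested genes, with a threshold of 0.05. A fit with 2 groups compared the 6 clone libraries with 3 control libraries, and a fit with 3 groups gave the other comparisons. CPM used TMM-scaled totals, and log2 CPM a prior count of 2. Intervals are 95% and come from the fitted SE. Library totals gave a limit of 3 counts per library of 0.0239 to 0.0553 CPM, which covers counting error only. Lengths and positions are from GENCODE vM21 on GRCm38, promoters from RefSeq on GRCm38.p6, where 7 of the 10 genes matched.

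Alternatives were limma-voom (limma 3.58.1), DESeq2 1.42.0, upper-quartile normalization, no filter, a mean of at least 1 CPM, the mean of the clones' contrasts, fits on the 6 libraries compared, each library left out, and lengths of the longest transcript. The 10 genes and all lists were chosen with earlier results of these data known. Named were the 10 genes, Vcam1, up to 4 genes per pathway list with the largest change past the threshold and a mean of at least 1 CPM, the 2 most abundant genes of each list of other cells and any of its genes with 3 counts or fewer throughout, and the 2 genes most like each member over 1 CPM. Not all genes the rule covers, nor all alleles of the line, are reported here. Gdf2, Bmp10, Dab1, Sox10, Krt19, Pdgfrb, Prcd, Hand2os1, Gm10475, Pth1r, Rgs5, Pcdh7, Angptl6, Tagln, Aqp4, Mb, Vldlr, Fbln1, Mgp and Dpt, and the genes set beside the markers in the plot of levels per kilobase, were named outside it, after their values were seen. Figures were drawn with matplotlib 3.10.9 (python 3.11.15).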

Additional observations from a re-analysis of the deposited data

Results flagged for a closer look

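Cygb and Gfap were marked because their effect against the shared Vcam1 ctrl libraries differed between the clones by a test of the difference itself. Cygb was higher in Vcam1 KO1 than in Vcam1 KO2 by a log2 difference of 2.23 (SE 0.33, adjusted p = 0.00088), and Gfap by 2.30 (SE 0.43, adjusted p = 0.0029, both edgeR's quasi-likelihood test), in 3 of 3 Vcam1 KO1 libraries against every Vcam1 KO2 library. The difference was past the threshold in all fits that left out 1 library, between 1.98 and 2.41 for Cygb and between 1.97 and 2.53 for Gfap.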

How the results depend on the processing

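Under the alternatives 352 values of the tested markers were recomputed, of which 319 kept their direction and side of the threshold, 4 lost their call, 21 gained one and 8 changed sign. The calls of Lhx2 and Ngfr against Vcam1 ctrl, for both clones and for each, held under every alternative in which they were tested. The number of markers called for both clones was 3, and became 5 with DESeq2, 5 for the mean of the clones' contrasts, both by adding Des and Cygb, and 1 at a mean of at least 1 CPM. That filter also gave 2 for Vcam1 KO1, 1 for Vcam1 KO2 and 1 between the clones, since Ngfr and Gfap were then not tested. Leaving out 1 library gave 2 to 4 for both clones, 4 to 6 for Vcam1 KO1, 2 to 4 for Vcam1 KO2 and 2 to 3 between the clones. Of the values that changed sign, none of which passed the threshold with either sign, Fap became 0.18 for both clones without WT replicate 2. For Vcam1 KO1 it became 0.00 with upper-quartile normalization, 0.35 without WT replicate 2, 0.26 without KO1 replicate 1 and 0.45 without KO1 replicate 2, and between the clones -0.23 with limma-voom and -1.0 without KO1 replicate 3, where Des became 0.15. With 1 library left out Fap ranged from -0.78 to 0.18 for both clones, from -1.45 to 0.45 for Vcam1 KO1 and from -1.0 to 0.90 between the clones, and Des between the clones from -0.40 to 0.15. The cause was not tested. Counts over all genes stayed within 1.5 times, at 5583 to 7913 for both clones with 1 library left out. The median of all genes moved to 0.11 with no filter for both clones and with upper-quartile normalization between the clones, and to no more than 0.07 elsewhere. Lrat, Hand2, Reln and Thy1 were limited by depth. No paired analysis was possible because the labels carry no replicate numbers.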
